A study of Homo sapiens with 24 samples.

Results

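The 10 genes described here are effectors that low oxygen induces in many cell types: ANKRD37, HILPDA, ADM, VEGFA, BNIP3, BNIP3L, DDIT4, CA9, NDRG1 and P4HA1. They were picked by gene name from the 58884 genes listed in each of 2 RNA-seq tables of HEK293T cells, a human embryonic kidney line that carries the SV40 large T antigen. The 10 were chosen from their values in the SETD2 C libraries against the KO and SETD2 FL libraries. Those differences are therefore given below as a description without p-values, and counts of calls among them only describe the choice. The values of the libraries in the WT and KO comparison were not used for that choice, though earlier results of these data were known when it was made. The members were tested in that comparison.

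The first table holds 2 libraries of WT cells and 2 of KO cells, in which both alleles of the gene for the histone methyltransferase SETD2 were disrupted, all labelled untreated. The second table holds 2 libraries of untreated KO cells, 2 of KO cells given a plasmid for full-length SETD2 (SETD2 FL) and 2 of KO cells given a plasmid for the C-terminal segment of SETD2, residues 1404 to 2564 (SETD2 C, written n3 in the labels). Both constructs were driven by the CMV promoter after transient transfection, and RNA was isolated 72 h later. The labels name no oxygen treatment. Levels are scaled TPM: the TPM unit, which is relative to transcript length and to the library total, divided by a factor per library that ran from 0.879 to 1.07 and sets the libraries of a table to the same median ratio. SETD2 transcripts were at 14.3 and 14.4 scaled TPM in WT and at 15.3 and 15.7 in the libraries labelled KO of the first table, a log2 fold change of 0.11 (limma adjusted p = 0.408), so the transcript level was not lower in KO. In the second table they were at 12.4 and 12.7 in KO, 424 and 459 in SETD2 FL, and 1183 and 1251 in SETD2 C, plasmid transcripts included. All 5 markers of the HEK293 line, neurofilament genes among them, were above 0 in every group, and the summed level of the 3 endothelial markers stayed between 0.0103 and 0.26 scaled TPM. The 4 blood cell markers summed to 1.90 to 1.95 scaled TPM in KO of the second table, 2.66 to 2.74 in SETD2 FL and 3.08 to 3.20 in SETD2 C, without overlap. The 4 fibroblast markers summed to 0.745 to 1.17 scaled TPM in KO, 1.31 to 1.37 in SETD2 FL and up to 2.88 in SETD2 C, where both libraries were above the other 4. COL1A2, PTPRC and CDH5, which define fibroblasts, blood cells and endothelium, were at 0 in every KO and SETD2 FL library. The line markers NEFL and NEFM were called higher in SETD2 C against KO, by 1.22 and 1.20 on the log2 scale, and the part of these marker differences in the results was not tested.

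Cells sense low oxygen through the hypoxia-inducible factor (HIF), a pair of an oxygen-labile alpha subunit (HIF-1alpha, gene HIF1A, or HIF-2alpha, gene EPAS1) and the stable partner ARNT. Prolyl hydroxylases of the EGLN family mark the alpha subunit when oxygen is present, and the VHL protein then has it degraded. When the mark is missing, HIF enters the nucleus and binds a short core motif near its targets, which shift the cell to glycolysis, recruit vessels, clear mitochondria and buffer acid. Several of the 10 genes also respond to other signals, such as nutrient or DNA damage stress for DDIT4.

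RefSeq promoter windows of GRCh38.p14, from 250 bases before to 50 bases after the transcription start, were matched for 6 of the 10 genes: ANKRD37, ADM, BNIP3, DDIT4, CA9 and P4HA1. HILPDA, VEGFA, BNIP3L and NDRG1 had no window used here. The windows of ANKRD37 and ADM are shown as those of the genes with the largest differences, and that of DDIT4 as the gene with the largest difference between KO and WT. Capitals mark the HIF core motif, ACGTG or GCGTG, read on either strand (CACGT or CACGC on the other).
ANKRD37, chr4:185396591-185396890, plus strand: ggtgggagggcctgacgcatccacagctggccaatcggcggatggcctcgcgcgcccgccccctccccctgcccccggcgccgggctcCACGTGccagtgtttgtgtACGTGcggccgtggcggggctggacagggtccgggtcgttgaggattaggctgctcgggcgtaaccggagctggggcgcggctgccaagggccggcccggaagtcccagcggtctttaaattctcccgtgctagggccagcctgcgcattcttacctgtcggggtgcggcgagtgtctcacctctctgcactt
ADM, chr11:10304823-10305122, plus strand: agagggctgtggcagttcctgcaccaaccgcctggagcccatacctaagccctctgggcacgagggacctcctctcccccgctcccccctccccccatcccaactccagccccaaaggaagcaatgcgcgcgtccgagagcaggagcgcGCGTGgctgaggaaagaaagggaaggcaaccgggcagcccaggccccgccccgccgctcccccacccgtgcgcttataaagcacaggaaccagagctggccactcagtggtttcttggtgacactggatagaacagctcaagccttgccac
DDIT4, chr10:72273674-72273973, plus strand: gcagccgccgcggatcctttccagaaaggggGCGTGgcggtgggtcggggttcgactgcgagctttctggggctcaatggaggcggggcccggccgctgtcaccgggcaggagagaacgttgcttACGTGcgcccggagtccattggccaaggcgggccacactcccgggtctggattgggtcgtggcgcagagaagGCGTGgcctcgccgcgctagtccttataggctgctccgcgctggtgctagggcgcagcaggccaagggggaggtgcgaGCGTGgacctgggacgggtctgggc
In the ANKRD37 window, ACGTG was found 3 times, and 2 of these overlap in the palindrome CACGTG, which reads the same on both strands, 162 bases before the RefSeq start. In the GENCODE annotation the ANKRD37 gene starts further upstream, at 185396021, so there the window lies within the gene. ADM held 1 GCGTG, 101 bases before the start. DDIT4 held 1 ACGTG and 3 GCGTG, BNIP3 held 2 ACGTG and 4 GCGTG, and CA9 and P4HA1 held 1 ACGTG each. Thus all 6 windows held either form and 5 held ACGTG. Of 35116 RefSeq promoter windows of 300 bases, 48.4% held either form and 21.4% held ACGTG, so a match is common and describes letters, not binding.

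**Figure D1:**
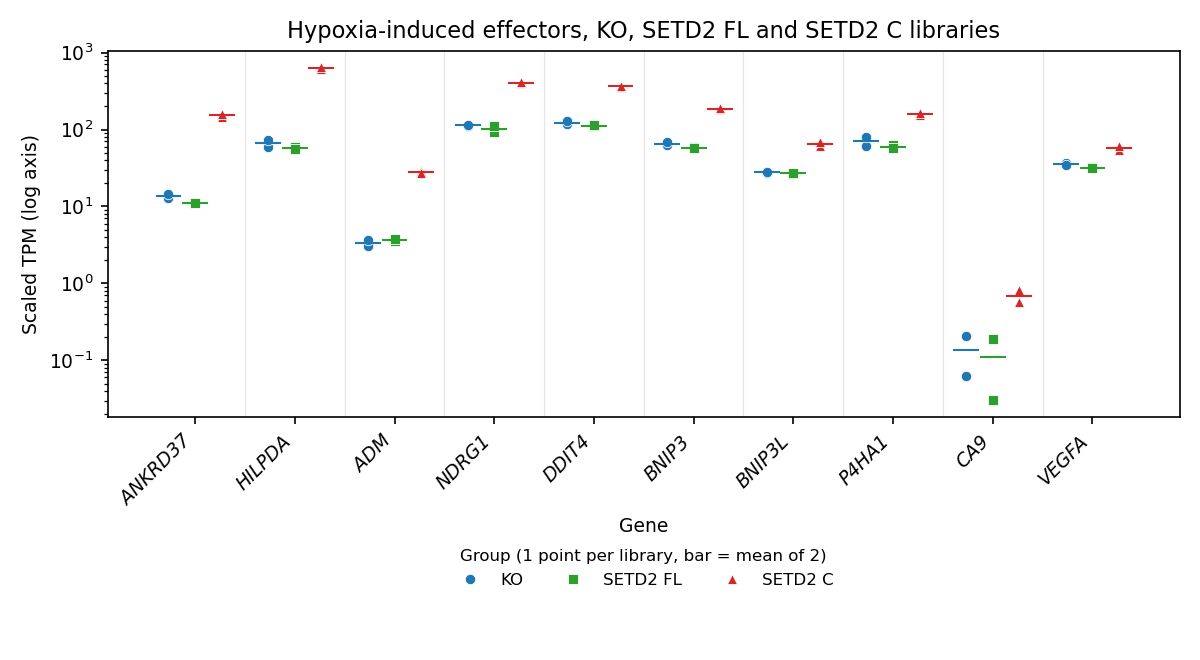
Scaled TPM (log axis) of the 10 genes, 1 point per library and a bar at the mean of the 2 libraries of each group, KO (blue circles), SETD2 FL (green squares) and SETD2 C (red triangles). For each gene both SETD2 C points lie above the other 4. KO and SETD2 FL lie close together, up to 128 for DDIT4, except for CA9, whose KO and SETD2 FL points are spread from 0.0302 to 0.209.

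ANKRD37 encodes an ankyrin repeat protein of little known function and showed the largest difference of the 10. It was at 12.9 and 14.4 scaled TPM in KO, 11.01 and 11.03 in SETD2 FL, and 145 and 160.3 in SETD2 C. The SETD2 C libraries were far above the other 4, and KO and SETD2 FL did not overlap, with SETD2 FL the lower. The log2 fold change on log2(scaled TPM + 0.5) was 3.44 with a standard error (SE) of 0.078 for SETD2 C against KO, the third largest of 15933 genes tested, and 3.73 (SE 0.078) for SETD2 C against SETD2 FL, the largest. In these bulk libraries, more responding cells and more RNA per cell cannot be told apart.

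HILPDA encodes a lipid droplet protein that inhibits the triglyceride lipase ATGL, and it was the most abundant of the 10 in SETD2 C. It was at 58.8 and 73.3 scaled TPM in KO, 55.6 and 59.2 in SETD2 FL, and 609 and 641 in SETD2 C. Both SETD2 C libraries were high, and KO and SETD2 FL overlapped. The log2 fold change was 3.24 (SE 0.096) against KO and 3.43 (SE 0.096) against SETD2 FL.

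The secreted members act on vessels. ADM encodes adrenomedullin, a vasodilator peptide, and was at 3.09 and 3.71 scaled TPM in KO, 3.58 and 3.75 in SETD2 FL, and 27.5 and 29.3 in SETD2 C. Its SETD2 C libraries stood apart while KO and SETD2 FL overlapped, and the log2 fold change was 2.89 (SE 0.103) against KO and 2.79 (SE 0.103) against SETD2 FL. VEGFA, the main growth factor for endothelial cells, was at 34.9 and 37.0 scaled TPM in KO, 31.2 and 32.2 in SETD2 FL, and 54.7 and 61.9 in SETD2 C. The 3 groups of VEGFA did not overlap, but its difference was the smallest of the 10, with a log2 fold change of 0.69 (SE 0.073) against KO and 0.87 (SE 0.073) against SETD2 FL.

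BNIP3 and BNIP3L are paralogs that sit in the outer mitochondrial membrane and bind autophagy proteins of the LC3 and GABARAP family. BNIP3 was at 62.4 and 68.5 scaled TPM in KO, 57.9 and 58.4 in SETD2 FL, and 182 and 188 in SETD2 C, a log2 fold change of 1.50 (SE 0.060) against KO and 1.66 (SE 0.060) against SETD2 FL. BNIP3L was at 27.4 and 28.4 scaled TPM in KO, 26.3 and 27.5 in SETD2 FL, and 61.2 and 68.4 in SETD2 C, a log2 fold change of 1.20 (SE 0.070) against KO and 1.25 (SE 0.070) against SETD2 FL. The SETD2 C libraries of both genes stood above the other 4, and KO and SETD2 FL overlapped for BNIP3L but not for BNIP3. In each group BNIP3 was the higher of the pair per transcript length.

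DDIT4 (REDD1), an inhibitor of the growth kinase complex mTORC1, was at 117 and 128 scaled TPM in KO, 109.7 and 115 in SETD2 FL, and 356 and 372 in SETD2 C. NDRG1, a cytoplasmic protein linked to differentiation and stress, was at 112 and 114 scaled TPM in KO, 91.6 and 109.5 in SETD2 FL, and 398 and 414 in SETD2 C. For both genes SETD2 C was the highest and SETD2 FL lay just below KO without overlap. The log2 fold change of SETD2 C against KO was 1.57 (SE 0.062) for DDIT4 and 1.84 (SE 0.081) for NDRG1, and against SETD2 FL it was 1.69 (SE 0.062) and 2.01 (SE 0.081).

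P4HA1 encodes the catalytic subunit of collagen prolyl 4-hydroxylase and was at 61.9 and 78.9 scaled TPM in KO, 56.8 and 63.0 in SETD2 FL, and 154 and 165.7 in SETD2 C. Its KO libraries were spread more widely than those of most members and overlapped SETD2 FL, and the log2 fold change was 1.19 (SE 0.11) against KO and 1.41 (SE 0.11) against SETD2 FL. CA9, a membrane carbonic anhydrase that acidifies the cell surroundings and is a classical hypoxia marker, was the least abundant. It was at 0.0621 and 0.209 scaled TPM in KO, 0.0302 and 0.188 in SETD2 FL, and 0.571 and 0.819 in SETD2 C. It passed the filter on low values, a TPM of at least 0.5 in 2 libraries, only through the SETD2 C libraries and so had to differ. The added 0.5 also understates the log2 fold change of such a low gene, which was 0.91 (SE 0.24) against KO and reached 1.81 with 0.1 in its place.

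**Figure D2:**
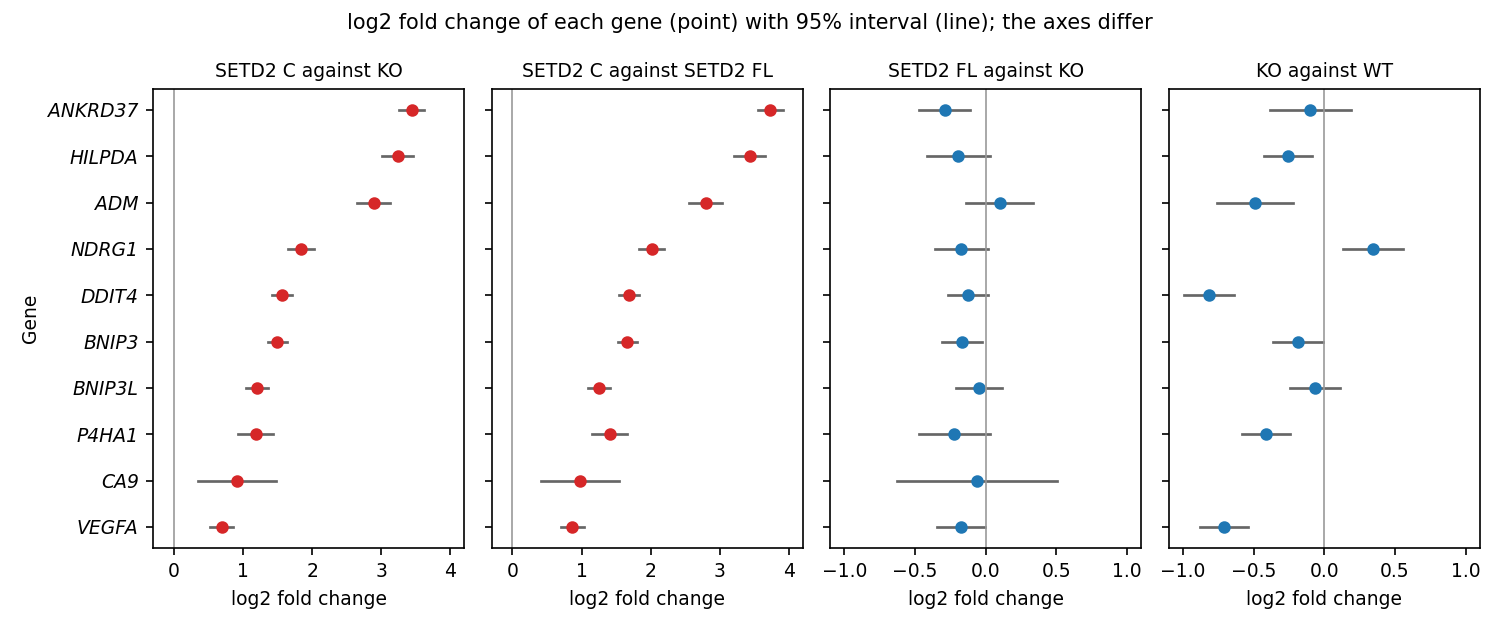
log2 fold change of each gene (point) with its 95% interval (line) in the 4 comparisons, with wider axes for the SETD2 C panels. SETD2 C exceeded KO by 0.69 to 3.44 and SETD2 FL by 0.87 to 3.73, while SETD2 FL against KO ran from -0.29 to 0.098 and KO against WT from -0.82 to 0.35, CA9 not tested there.

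In limma, a gene counted as called when it changed by 2-fold or more with an adjusted p (Benjamini-Hochberg) no higher than 0.05. By that rule 8 of the 10 genes were called higher in SETD2 C against KO, where 3.75% of all tested genes were called higher and 0.314% lower, and CA9 and VEGFA were the others. Against SETD2 FL the count was also 8, where 3.36% of all genes were called higher and 0.421% lower. All 10 genes had no overlap between groups in both comparisons, against 40.5% of all genes higher than KO without overlap and 40.3% higher than SETD2 FL. The median log2 fold change of the 10 was 1.53 against KO and 1.68 against SETD2 FL, and that of all tested genes was 0.046 and 0.042. These counts describe the choice of the genes and are not evidence beyond it. The 10 genes made up 0.0475% and 0.0521% of all TPM in KO, 0.0435% and 0.0466% in SETD2 FL, and 0.211% and 0.224% in SETD2 C.

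**Figure D3:**
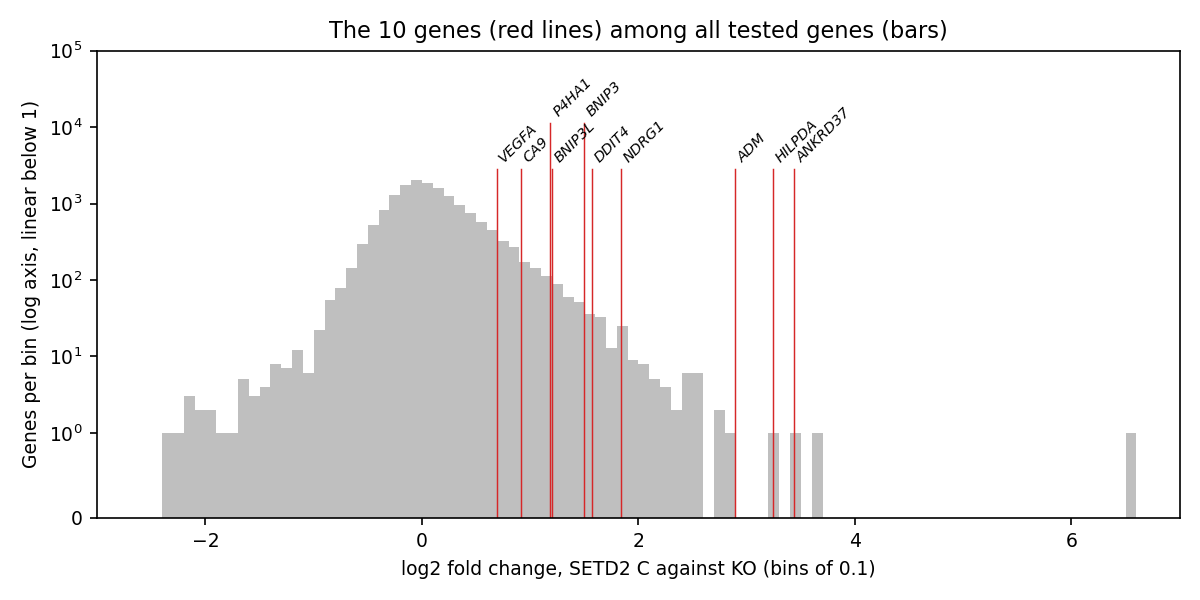
Number of tested genes per bin of 0.1 of the log2 fold change of SETD2 C against KO (grey bars, log axis), with the 10 genes as red lines. ANKRD37, HILPDA and ADM lie at 2.89 to 3.44 in the sparse right tail, the other 7 genes at 0.69 to 1.84, and the bar at 6.54 is SETD2 itself.

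With full-length SETD2 the 10 genes were near their KO level. In SETD2 FL against KO, 9 of the 10 had a negative log2 fold change, from -0.050 for BNIP3L to -0.29 for ANKRD37 (SE 0.078), and ADM was at 0.098 (SE 0.103). The median was -0.17, beside 0.0056 over all genes. ANKRD37, BNIP3, DDIT4, VEGFA and NDRG1 were lower in both SETD2 FL libraries than in both KO libraries, 5 of the 10, where 23.4% of all genes were lower without overlap. This comparison uses the same KO and SETD2 FL libraries as those above. The scaled TPM of SETD2, plasmid transcripts included, was 2.75 times as high in SETD2 C as in SETD2 FL. TPM is relative to transcript length, and the SETD2 C plasmid codes for only a segment of the protein. The ratio is therefore not a like measure of transcript number for both constructs. The paper, by contrast, reports no significant difference in mRNA level between the constructs in its RNA-seq data. The part of the SETD2 transcript level in the differences between the constructs was not tested. The untreated KO libraries differ from the others in both the transfection and the construct, and for SETD2 C against KO these cannot be told apart.

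Among themselves, the 10 genes fell along a range in the second table. The root mean square difference between the mean-centred log2 values of 2 genes over the 6 libraries was 0.14 for ANKRD37 and HILPDA, 0.39 for ANKRD37 and ADM, and 1.33 for ANKRD37 and VEGFA. The closest pair was BNIP3 and DDIT4, at 0.038. Of the genes outside the 10, ENO2 was the nearest to ADM, at 0.10, followed by RSC1A1, TCEAL7, SLC2A3 and the lncRNA AC098479.1. RSC1A1, ENO2, TCEAL7, SLC2A3 and the lncRNA LINC01358 were the nearest 5 to both ANKRD37 and HILPDA, from 0.41 to 0.53 and from 0.30 to 0.43. ENO2, the neuronal enolase, was at a mean of 11.5 scaled TPM in KO, 11.8 in SETD2 FL and 79.7 in SETD2 C, while RSC1A1 was listed at 0 in every KO and SETD2 FL library and at a mean of 2.89 in SETD2 C. RSC1A1, LINC01358 and AC098479.1 were at or near 0 outside SETD2 C and passed the filter on low values only through those libraries, so their distance and place depend on the added 0.5.

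**Figure D4:**
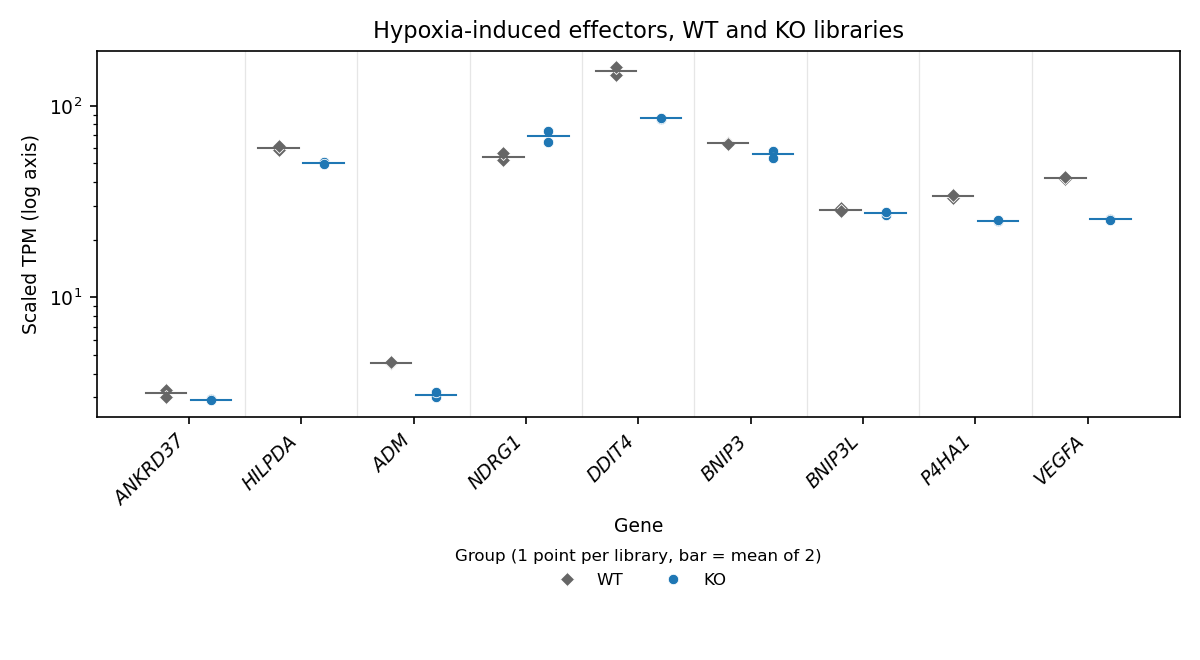
Scaled TPM (log axis) of 9 of the 10 genes in WT (grey diamonds) and KO (blue circles), 1 point per library and a bar at the mean of the 2 libraries. DDIT4 and VEGFA show the widest gaps, with KO at 85.3 to 86.9 and 25.2 to 25.8 below WT at 145 to 159 and 41.4 to 42.5, and NDRG1 alone lies higher in KO.

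KO had lower levels than WT of 3 of the 9 members tested in the first table, whose values were not used for the choice. DDIT4 was at 145 and 159 scaled TPM in WT and at 85.3 and 86.9 in KO, and it fell by 0.82 on the log2 scale (SE 0.075, limma adjusted p = 0.00358). VEGFA was at 41.4 and 42.5 scaled TPM in WT and at 25.2 and 25.8 in KO, and it fell by 0.71 (SE 0.071, limma adjusted p = 0.00498). P4HA1 was at 33.1 and 34.1 scaled TPM in WT and at 25.0 and 25.3 in KO, and it fell by 0.41 (SE 0.072, limma adjusted p = 0.0322). All 3 were lower in both KO libraries than in both WT libraries, and DDIT4 and VEGFA kept their direction and the adjusted p of 0.05 under all 12 alternatives. With 1 library left out, the lone library of its group was assumed to vary like the other group. P4HA1 lost the adjusted p of 0.05 under 7 of 12 alternatives, each library left out in turn among them, with adjusted p from 0.0541 to 0.194 without 1 library.

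The other 6 members did not pass the adjusted p. ADM was at 4.52 and 4.61 scaled TPM in WT and at 3.02 and 3.19 in KO, a log2 fold change of -0.49 (SE 0.11, limma adjusted p = 0.0605). HILPDA was at 58.5 and 61.4 in WT and at 49.5 and 50.6 in KO, a log2 fold change of -0.26 (SE 0.070, limma adjusted p = 0.0889). NDRG1 went the other way, with 51.9 and 56.7 in WT and 65.0 and 73.5 in KO, a log2 fold change of 0.35 (SE 0.089, limma adjusted p = 0.0792). BNIP3 was at -0.19 (limma adjusted p = 0.181), BNIP3L at -0.065 (limma adjusted p = 0.614) and ANKRD37 at -0.099 (limma adjusted p = 0.647), with 95% intervals of -0.36 to -0.010, -0.24 to 0.11 and -0.39 to 0.19. The signs of ANKRD37 and BNIP3L turned without scaling, to 0.013 and 0.063. CA9 was below the filter, at 0.0577 and 0.159 scaled TPM in WT and at 0 and 0.0482 in KO.

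Of the 9, 3 passed the adjusted p alone, all lower, where 3.17% of all 14746 genes passed it lower and 1.32% higher. By the full call with its fold of 2, 0 of the 9 were called, where 0.339% of all genes were called higher and 1.02% lower, and 7 of the 9 had an unadjusted p under 0.05, beside 24.9% of all genes. 8 members were lower in both KO libraries without overlap and NDRG1 was higher, where 29.4% of all genes were lower and 27.4% higher in that way. The median of the 9 was -0.26, beside -0.0058 over all genes. With 2 libraries in each group, the smallest two-sided p of an exact permutation test is 0.333.

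The KO level of some members differed between the tables, which were made separately and are not compared by a test. ANKRD37 had a mean deposited TPM of 3.05 in KO of the first table and 13.1 in KO of the second, and P4HA1 had 26.3 and 67.7. BNIP3L had 28.7 and 26.8, and BNIP3 had 58.5 and 62.9. The ratio between the tables thus differed from member to member.

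**Figure D5:**
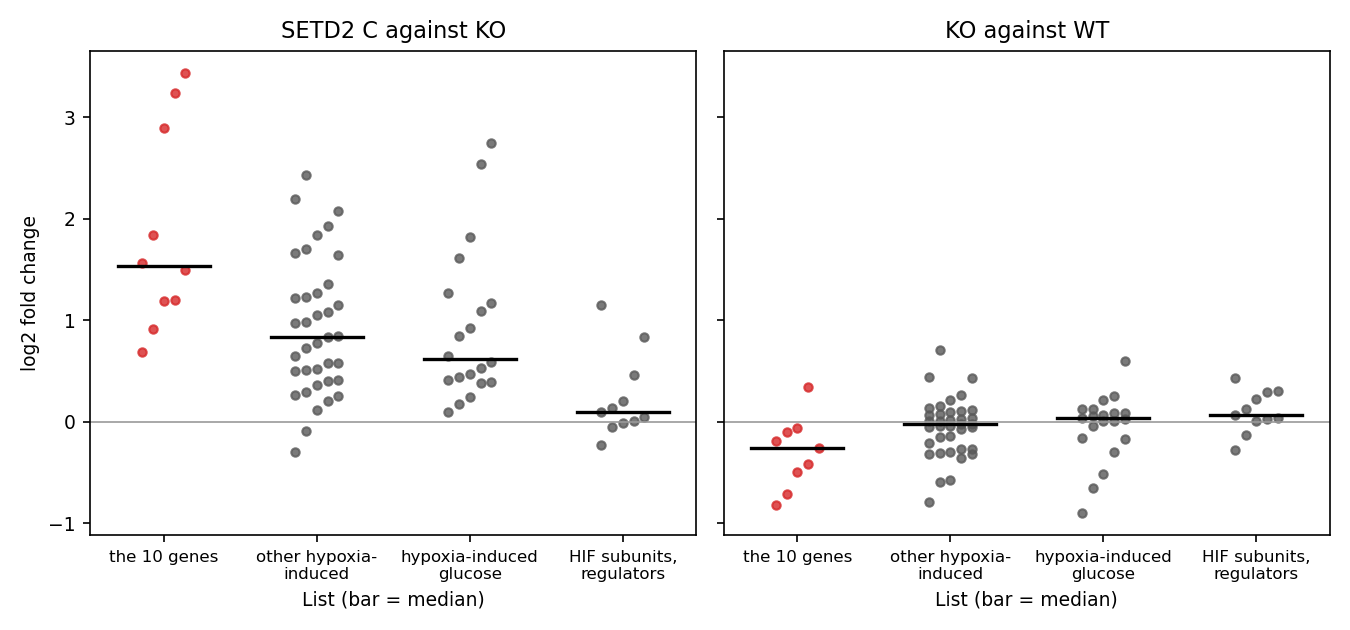
log2 fold change of each tested gene (1 point) in 4 lists, for SETD2 C against KO (left) and KO against WT (right), with a bar at the median. On the left the median is 1.53 for the 10 genes (red), 0.84 for other hypoxia-induced genes, 0.62 for hypoxia-induced glucose genes and 0.099 for HIF subunits and regulators, and on the right the medians lie between -0.26 and 0.069.

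A list of 40 other known hypoxia-induced genes holds none of the 10. This list and those below were chosen with earlier results of these data known. The genes named from them are mostly those with the largest changes, so their p-values are not independent of that choice. Of 37 tested, 15 were called higher in SETD2 C against KO, beside 3.75% of all tested genes. In that direction 30 passed the adjusted p alone, where 21.1% of all tested genes passed it higher and 15.1% lower. The median log2 fold change was 0.84, and MIF, a cytokine, passed the adjusted p lower at -0.29 (SE 0.095, limma adjusted p = 0.0433). LOX, a collagen cross-linking enzyme, rose by 2.43 (SE 0.12, limma adjusted p = 1.54e-05), from a mean of 10.6 scaled TPM to 59.1. CXCR4, a chemokine receptor, rose by 2.20 (SE 0.11, limma adjusted p = 1.98e-05), and BHLHE40, a transcriptional repressor, by 2.07 (SE 0.077, limma adjusted p = 6.78e-06). Against SETD2 FL, 16 of 37 were called higher, beside 3.36% of all genes. The same 3 genes were in the lead at 2.38, 2.24 and 2.22. In SETD2 FL against KO, 0 of 37 were called by limma, where 0.0753% of all genes were called higher and 0.00628% lower, and 9 had an unadjusted p under 0.05, beside 15.9% of all genes. HMOX1, heme oxygenase, passed the adjusted p there at 0.87 (SE 0.071, limma adjusted p = 0.00756) but lost it under 5 of 14 alternatives, with adjusted p up to 0.123. In KO against WT, 0 of 37 were called by limma, and 10 had an unadjusted p under 0.05, beside 24.9% of all genes. There 3 genes passed the adjusted p in each direction, where 1.32% of all genes passed it higher and 3.17% lower. Of these, VLDLR (-0.79), HMOX1 (0.70) and ANKZF1 (-0.59) had the largest changes. VLDLR lost the adjusted p under 4 of 12 alternatives and ANKZF1 under 6. The count of 6 fell to 1 without either KO library and to 2 without WT library 1.

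Glucose transporters and glycolytic enzymes form the list of glucose genes that low oxygen induces. Of 20 tested, 7 were called higher in SETD2 C against KO, beside 3.75% of all genes. In that direction 18 passed the adjusted p alone, beside 21.1% of all genes, and the median of the 20 was 0.62. ENO2 rose by 2.74 (SE 0.064, limma adjusted p = 6.47e-07), the glucose transporter SLC2A3 by 2.54 (SE 0.12, limma adjusted p = 1.4e-05) and PFKFB4, which makes an activator of glycolysis, by 1.82 (SE 0.084, limma adjusted p = 1.13e-05). Against SETD2 FL, 8 of 20 were called higher, beside 3.36% of all genes. In KO against WT, ENO2 fell by 0.90 (SE 0.12, limma adjusted p = 0.0151) and SLC2A3 fell by 0.51 (SE 0.094, limma adjusted p = 0.0384), and the median of the 20 was 0.037. Those 2 were the genes of the list past the adjusted p, both lower, beside 3.17% of all genes. SLC2A3 lost the adjusted p under 7 of 12 alternatives, with adjusted p up to 0.24, ENO2 lost it under 2, and the count of 2 genes ran from 0 to 4.

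The transcripts of HIF1A, EPAS1 and ARNT did not pass the test in SETD2 C against KO. A further alpha subunit gene, HIF3A, was below the filter and not tested, at a mean of 0.0052 scaled TPM in KO and 0.075 in SETD2 C. HIF1A was at 23.0 and 23.2 scaled TPM in KO, 23.7 and 24.8 in SETD2 FL, and 23.5 and 26.1 in SETD2 C, a log2 fold change of 0.099 for SETD2 C against KO (95% interval -0.067 to 0.27, limma adjusted p = 0.309). EPAS1 was at 0.043 (95% interval -0.20 to 0.29, limma adjusted p = 0.774) and ARNT at 0.14 (limma adjusted p = 0.156). The protein level of HIF was not measured by these libraries. Of 11 HIF subunits and regulators tested, EGLN3, a hydroxylase that HIF itself induces, was the gene called, and it rose by 1.15 (SE 0.096, limma adjusted p = 0.000224). EGLN1 (0.84), ARNT2 (0.46) and VHL (0.21) passed the adjusted p higher and EGLN2 (-0.23) lower. Of all genes, 3.75% were called higher, and 21.1% passed the adjusted p alone higher and 15.1% lower. EGLN1 and EGLN3 also stand in the list of other hypoxia-induced genes.

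Of 11 lipid droplet and lipolysis genes, PLIN2, a droplet coat protein, was called higher in SETD2 C against KO, by 1.56 (SE 0.061, limma adjusted p = 6.9e-06). Of 7 carbonic anhydrases other than CA9, CA8 was called, at 1.43 (SE 0.066), and of the 3 NDRG paralogs NDRG4, at 1.24 (SE 0.10). Of 10 collagen hydroxylases other than P4HA1, PLOD2, a lysyl hydroxylase, was called at 1.64 (SE 0.11), with P4HA2 at 0.58 (SE 0.11, limma adjusted p = 0.00657). In each of these lists 1 gene was called, beside 3.75% of all genes called higher. The medians were 0.21, 0.34, 0.17 and 0.14 in that order, and 5 of the collagen hydroxylases were positive and 5 negative. Among 14 mitophagy receptors and adaptors no gene was called by limma, 8 had an unadjusted p under 0.05, beside 47.1% of all genes, and 3 passed the adjusted p higher and 2 lower, with OPTN at 0.95, GABARAPL1 at 0.77 and PHB2 at -0.46. Among 11 mTORC1 regulators none was called by limma, 7 had an unadjusted p under 0.05 and 4 passed the adjusted p higher and 2 lower, and DDIT4L, the paralog of DDIT4, was at 0.56 with MTOR at -0.51 and SESN2 at -0.47. Beside the 21.1% and 15.1% of all genes that passed the adjusted p, these counts are read as no result about either list.

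Of 7 other VEGF ligands and receptors, 0 were called by limma in SETD2 C against KO. The adjusted p was passed by 1 higher and 1 lower, beside 21.1% and 15.1% of all genes, which is read as no result about the list. PGF, a placental VEGF relative, rose by 0.78 (SE 0.083, limma adjusted p = 0.000589) and VEGFB fell by 0.31 (SE 0.076, limma adjusted p = 0.0152). Of the 7, 6 had a negative log2 fold change, and the median was -0.11. Of 4 adrenomedullin system genes tested, ADM2 fell by 0.48 (SE 0.16, limma adjusted p = 0.0429), and it lost the adjusted p under 8 of 13 alternatives, with adjusted p up to 0.20. RAMP1, which forms calcitonin family receptors, differed between KO and WT, at 4.86 and 4.90 scaled TPM in WT and at 0 and 0.0379 in KO (limma adjusted p = 0.000234). ATF4 and unfolded protein response genes, a stress programme that also induces DDIT4, were split in SETD2 C against KO. Of 13, 4 passed the adjusted p higher and 7 lower, beside 21.1% and 15.1% of all genes. ATF3 rose by 1.48 (SE 0.099) and DDIT3 by 1.33 (SE 0.090), and CHAC1 fell by 1.12 (SE 0.15), all called. In KO against WT, where DDIT4 fell, all 13 had a negative log2 fold change, as did 7530 of all 14746 genes. Of the 13, 12 were lower in both KO libraries without overlap, beside 29.4% of all genes. The adjusted p was passed lower by 3 of them, beside 3.17% of all genes. These were CHAC1 at -0.95 (limma adjusted p = 0.0396), ATF3 at -0.48 (limma adjusted p = 0.0247) and ASNS at -0.42 (limma adjusted p = 0.03), which lost it under 4, 6 and 6 of 12 alternatives. The part of this list's difference in that of DDIT4 was not tested.

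Genes that overlap a member on the genome can share its reads, those on the other strand only where counting ignores strand, and the strand setting is not given in the sources used here. ANKRD37 (chr4, 185396021 to 185400628, plus strand, 5 exons) overlaps UFSP2 on the other strand by 1092 bases, and UFSP2 was at 0.0195 (SE 0.132) in SETD2 C against KO. HILPDA (chr7, 128455849 to 128458418, plus strand, 2 exons) lies within the lncRNA ENSG00000273184 and shares 2482 bases with HILPDA-AS1. Both are annotated on the strand of HILPDA and can share its reads whatever the strand setting, and in SETD2 C they had a mean of 9.36 and 2.52 scaled TPM, far below HILPDA. ENSG00000272114, a lncRNA that overlaps VEGFA by 188 bases on the other strand, fell by 2.23 in KO against WT (SE 0.21, limma adjusted p = 0.00431), from a mean of 4.77 scaled TPM to 0.598. ENSG00000277959, which overlaps BNIP3 by 332 bases on the other strand, fell by 1.42 in SETD2 C against KO (SE 0.20, limma adjusted p = 0.00184). The part of shared reads in the members' values was not tested.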

How the data were processed

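RNA-seq of HEK293T cells was read from 10 libraries in 2 tables. The authors aligned paired reads to hg38 with STAR 2.6.1c, estimated TPM per gene with RSEM 1.3.0 and deposited the TPM without scaling between libraries. TPM keeps no depth, so no counting error was derived. Each library was scaled by the median, over protein-coding genes and lncRNAs whose TPM was 1 or more throughout, of its TPM divided by the gene's geometric mean. Genes of these types were tested where 2 libraries had a TPM of at least 0.5, 14746 and 15933 of 58884, with limma 3.58.1 in R 4.3.3 (eBayes with trend) on log2(scaled TPM + 0.5), one fit a table. Gene types and positions came from GENCODE 44 on GRCh38, with 58472 genes matched by identifier and 31 by symbol. The procedure was tested on simulated data.

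The members and all lists were chosen with earlier results of these data known. Named genes were the members, SETD2, the 3 largest changes per list and comparison past the call rule or, where none was called, past the adjusted p, and the 5 nearest profiles to ANKRD37, HILPDA and ADM. EGLN1, ARNT2, VHL, EGLN2, HIF1A, EPAS1, ARNT, P4HA2, MIF, the line markers and the overlapping genes were named after their values were seen.

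The labels do not say whether the libraries came from separate cultures, so p-values measure the spread between libraries, which may be technical. WT and KO of the first table share replicate numbers, and a block was an alternative. The KO libraries numbered 2 in both tables are different measurements. ChIP-seq samples were not analysed here.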

Additional observations from a re-analysis of the deposited data

How the results depend on the processing

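The log2 fold changes of the 10 genes in SETD2 C against KO and against SETD2 FL kept their sign under every alternative run. With no library left out of a group, the count of members higher was 8 to 10. All 10 were reached only by the adjusted p alone, without the fold of 2. VEGFA reached a log2 fold change of at most 0.84 against KO and 0.99 against SETD2 FL, under that fold. The 10 were chosen on these libraries, so this describes the choice and is not evidence beyond it. CA9 passed the filter on low values only through the SETD2 C libraries. In KO against WT, 2 or 3 members passed the adjusted p under all 12 alternatives. Without scaling, ANKRD37 turned to 0.013 and BNIP3L to 0.063 there, and the median of all genes moved to 0.11 in KO against WT, 0.18 in SETD2 C against KO and 0.16 in SETD2 C against SETD2 FL. P4HA1 had an adjusted p of 0.0831 with no filter, 0.368 without scaling and 0.0812 without trend.

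Counts over all genes moved more. With a pseudocount of 1 in place of 0.5, 128 genes were called in KO against WT, 7 in SETD2 FL against KO, 373 in SETD2 C against KO and 362 in SETD2 C against SETD2 FL, and with 0.1 the last counts were 1080 and 957. With TPM of at least 1 in every library the 4 counts were 83, 6, 301 and 308, fewer genes being tested, and with no filter 73 and 3 in the first 2. The adjusted p alone gave 661, 33, 5764 and 6087. In SETD2 FL against KO, no scaling gave 21 and a fit of only those groups 5. Leaving out each library, with the lone library of a group assumed to vary like the other groups, gave 118 to 262 in KO against WT (118 without KO library 2), 2 to 5 of 13 in SETD2 FL against KO, 625 to 707 in SETD2 C against KO and 580 to 670 in SETD2 C against SETD2 FL. Of the other hypoxia-induced genes, 30 passed the adjusted p higher against KO and also against SETD2 FL, and in KO against WT the count of 6 was 1 with no filter, 3 without trend and 1 to 7 with 1 library left out. Quantile normalization moved none of these counts by over 1.5 times. Where construction does not show the cause, the cause was not tested.

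With the replicate number as a block in the first table, 214 genes in place of 200 were called and 3 members passed the adjusted p. Deviations of WT and KO libraries with the same number had a correlation of 0.147 over 14746 genes, from 2 pairs, too few to show whether the numbers pair the libraries. No paired analysis was possible in the second table because its groups share fewer than 2 numbers.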
